A study of Mus musculus with 6 samples.

Results

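Fibroblast growth factors (FGFs) are secreted ligands that bind heparan sulfate and dimerise receptor tyrosine kinases at the cell surface, and a main route below the receptor runs through Ras and Raf to the kinases MEK and ERK. Mouse embryonic stem cells (mESCs) make Fgf4, which acts back on the cells that secrete it, and signalling through MEK and ERK moves them out of self-renewal towards differentiation. In the blastocyst the same ligand directs inner cell mass cells to primitive endoderm. The genes described here are 9 FGF ligands and receptors, chosen by name, out of 53390 genes with matched transcripts: the ligands Fgf2, Fgf4, Fgf8, Fgf10, Fgf15 and Fgf17 and the receptors Fgfr1, Fgfr3 and Fgfr4. For each gene, the estimated counts and the TPM (transcript abundance corrected for length and scaled to a fixed sum per library) of all its transcripts were summed.

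The libraries came from triple-knockout (TKO) mESCs, in which the DNA methyltransferase genes Dnmt1, Dnmt3a and Dnmt3b are inactivated on both alleles. The cells derive from the male J1 line (129S4/SvJae) and were grown on gelatin without feeder cells. There were 3 libraries of TKO-serum, grown in 15% fetal calf serum with leukaemia inhibitory factor (LIF) at 500 U/ml. There were 3 libraries of TKO-2i, grown in a medium with the MEK inhibitor PD0325901 at 1 µM, the GSK3 inhibitor CHIR99021 at 3 µM and LIF at 1000 U/ml, for 14 days in the study. The media therefore differ at least in serum, both inhibitors and the amount of LIF. The paper describes the base of the medium with inhibitors as a defined medium, so the basal medium can differ as well. The parts of these differences cannot be told apart. Whether the TKO cells are 1 clone is not given in the sources used here. Poly(A) RNA was sequenced with a kit that keeps the strand, from 500 ng of total RNA per library. The depth, as the sum of estimated counts, was 46228700, 44180642 and 43896549 for the TKO-2i libraries and 38274042, 51932739 and 44827609 for the TKO-serum libraries. Here and below, values of single libraries are given in the order of their replicate numbers, and SE stands for standard error.

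The transcripts of the disrupted genes were still counted. Dnmt1 stood at 149.5, 153.4 and 155.1 CPM (counts scaled to a common library size after TMM normalisation) in TKO-2i and at 129.2, 129.5 and 128.5 CPM in TKO-serum. Dnmt3a was at 7.14 to 7.45 CPM in TKO-2i and 29.4 to 30.7 CPM in TKO-serum, and Dnmt3b at 19.0 to 20.6 and 42.2 to 43.9 CPM. Which part of each gene is deleted is not given in the sources used here, so these levels check little about the genotype. All 8 mESC markers examined were abundant in both media, with Pou5f1 the highest at a mean of 1016.9 TPM in TKO-2i and 1250.1 TPM in TKO-serum. The mean levels of Nanog were 494.2 and 343.0 TPM in the same order, those of Zfp42 526.8 and 742.9 TPM, those of Tdgf1 335.2 and 421.9 TPM, and those of Esrrb 263.4 and 226.0 TPM. Sox2 had means of 162.6 and 240.8 TPM, Sall4 of 62.5 and 99.6 TPM and Dppa4 of 61.5 and 136.6 TPM. Replicates differed by more than counting noise in every pair. TKO-2i replicate 2 stood somewhat apart, with a chi-square per gene of 48.1 and 29.3 against replicates 1 and 3, where those 2 differed by 7.51 and the TKO-serum pairs by 4.78 to 16.4. The labels call the replicates biological, and the p-values measure only the spread between these samples.

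The comparison of TKO-2i with TKO-serum asks how the expression of these ligands and receptors differs between a medium with and a medium without inhibition of MEK and GSK3. The main ligand and the main receptor of these cells, Fgf4 and Fgfr1, stood at nearly the same level in both media. The ligands Fgf15, Fgf17 and Fgf8 and the receptors Fgfr3 and Fgfr4 were lower in TKO-2i, and the ligand Fgf10 was higher. Fgf2 was low in both. With edgeR's quasi-likelihood test and an adjusted p-value under 0.05, 1 of the 9 members was called higher and 5 were called lower, and 3 were not called. Of the 5, Fgf8 passed the filter on low counts through TKO-serum alone. Of all 18177 genes tested, 62.5% were called, 31.9% higher and 30.6% lower in TKO-2i, so the share of the 9 members that was called, 6 genes, was near that of all genes. The median log2 fold change of the 9 members (TKO-2i over TKO-serum) was -0.71, and that of all genes tested was 0.01. The CPM of 8 of the 9 members did not overlap between the groups, which held for 67.5% of all genes tested. In bulk RNA, fewer cells that express a gene cannot be told apart from less RNA per cell.

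**Figure D1:**
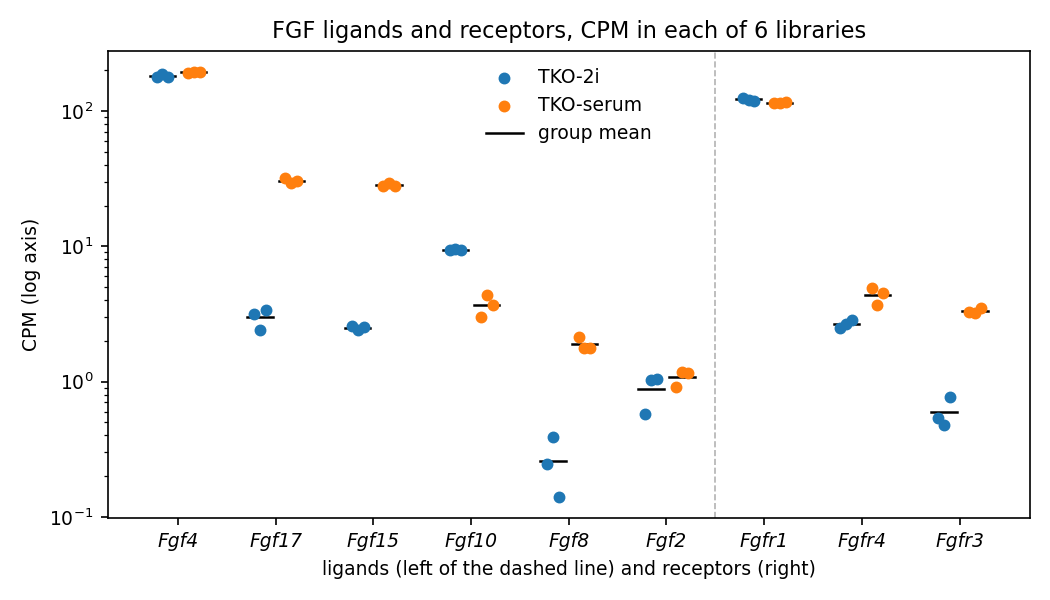
CPM of the 6 ligands and 3 receptors on a log axis, with each point 1 library (TKO-2i blue, TKO-serum orange) and each bar a group mean. Fgf4 and Fgfr1 lie above 100 CPM in both media, Fgf17 and Fgf15 lie near 30 CPM in TKO-serum and near 3 CPM in TKO-2i, and Fgf10 is the member that is clearly higher in TKO-2i.

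Fgf4 (ENSMUSG00000050917, chr7:144847367-144865243 of GRCm38, plus strand) encodes the ligand that mESCs and the early epiblast secrete, and is a known target of Oct4 (Pou5f1) and Sox2. It stood at 177.1, 188.1 and 177.5 CPM in TKO-2i and at 189.8, 193.6 and 194.2 CPM in TKO-serum. The TKO-2i libraries were all slightly lower, and the highest of them lay close to the lowest TKO-serum library. The log2 fold change was -0.09 (SE 0.05, 95% interval -0.21 to 0.03) with an adjusted p of 0.15, so a change beyond 0.21 on the log2 scale in either direction lies outside the interval. In TPM the groups overlapped, at 83.1 to 96.9 in TKO-2i and 94.0 to 102.8 in TKO-serum. The call was sensitive to small shifts. Without TKO-2i replicate 2 the log2 fold change was -0.11 and the adjusted p 0.048, and with a filter of at least 10 counts in every sample they were -0.13 and 0.045, in a range of adjusted p from 0.0069 to 0.33 over all alternatives. With upper quartile factors the log2 fold change was -0.21, but those factors also moved the median of all genes by -0.12. Relative to the median the value was -0.10 in that fit and in the main fit. It was -0.12 without TKO-2i replicate 2 and -0.14 with the filter of at least 10 counts.

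Fgf15 (ENSMUSG00000031073, chr7:144896531-144900953, plus strand) encodes the ligand best known as the gut hormone that represses bile acid synthesis, and is also expressed in the embryonic brain. Its levels were 2.56, 2.41 and 2.55 CPM in TKO-2i and 27.8, 29.4 and 28.0 CPM in TKO-serum. The replicates within each medium lay close together and the groups were far apart. Fgf15 was 11.3-fold lower in TKO-2i (log2 fold change -3.50, SE 0.07, adjusted p = 1.6e-08).

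Fgf17 (ENSMUSG00000022101, chr14:70636203-70642268, minus strand) and Fgf8 belong to the same subfamily of ligands that pattern the midbrain and cerebellum. Fgf17 stood at 3.17, 2.39 and 3.40 CPM in TKO-2i and at 31.8, 29.3 and 30.6 CPM in TKO-serum. It was 10.2-fold lower in TKO-2i, with a log2 fold change of -3.36 (SE 0.12, adjusted p = 1.3e-07). Fgf17 and Fgf15 thus had similar levels and similar differences, although they lie on different chromosomes. Fgf8 (ENSMUSG00000025219, chr19:45736798-45742915, minus strand), which is needed for cell migration at gastrulation, was much less abundant, with 11, 17 and 6 estimated counts in TKO-2i and 83, 94 and 82 in TKO-serum. These counts correspond to 0.245, 0.386 and 0.141 CPM and to 2.15, 1.77 and 1.78 CPM. The TKO-2i libraries were spread widely, with a coefficient of variation of 47.9%, but all lay below the TKO-serum libraries. Its log2 fold change was -2.86 (SE 0.28, adjusted p = 4.1e-05), a 7.26-fold lower level. Fgf8 passed the filter on low counts through TKO-serum alone, a route open only to a gene at a sufficient level in that medium, whereas the other 8 members passed it in both groups.

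Fgf10 (ENSMUSG00000021732, chr13:118669791-118792115, plus strand) encodes the mesenchymal ligand needed for limb and lung buds. It was the one member called higher in TKO-2i. The levels were 9.43, 9.52 and 9.33 CPM in TKO-2i and 3.01, 4.38 and 3.70 CPM in TKO-serum. The TKO-2i replicates were almost identical, with a coefficient of variation of 1.02%, and the TKO-serum replicates varied by 18.6%. The log2 fold change was 1.34 (SE 0.13, adjusted p = 2.9e-05), a 2.53-fold higher level.

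Fgf2 (ENSMUSG00000037225, chr3:37348346-37410108, plus strand) encodes the ligand added to cultures of primed epiblast stem cells. It was at 0.580, 1.02 and 1.05 CPM in TKO-2i and 0.907, 1.18 and 1.15 CPM in TKO-serum. The groups overlapped, and TKO-2i replicate 1 was the lowest library. The log2 fold change was -0.30 (SE 0.25, 95% interval -0.87 to 0.28, adjusted p = 0.33), so a difference of this size was not detectable at 26 to 63 counts per library. With single libraries left out the value ran from -0.45 to -0.08, the latter without TKO-2i replicate 1. The gene is overlapped on the other strand by Nudt6, with 57 to 81 counts, and by Gm42923, with 104 to 165 counts in TKO-2i and 304 to 530 in TKO-serum. Whether the quantification used the strand is not given in the sources used here, which leaves the counts of Fgf2 uncertain. The other members with an overlapping gene on the opposite strand were less exposed: Gm26793 over Fgf15 had 1 to 3 counts in TKO-2i and 16 to 23 in TKO-serum, and the genes over Fgf10, Fgfr1 and Fgfr3 had at most 7 counts in a library.

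Fgfr1 (ENSMUSG00000031565, chr8:25513654-25575718, plus strand) encodes the receptor that carries most of the response to Fgf4 in the epiblast. It stood at 124.5, 121.3 and 119.4 CPM in TKO-2i and at 114.1, 114.4 and 116.6 CPM in TKO-serum. The TKO-2i libraries were all slightly higher in CPM, whereas in TPM the groups overlapped, at 36.3 to 46.1 and 41.1 to 44.2. The log2 fold change was 0.08 (SE 0.05, 95% interval -0.03 to 0.19), with an adjusted p of 0.18.

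The other receptors among the members were rare and lower in TKO-2i. Fgfr3 (ENSMUSG00000054252, chr5:33721674-33737068, plus strand), known as a brake on growth of long bones, was at 0.535, 0.477 and 0.773 CPM in TKO-2i and 3.29, 3.19 and 3.52 CPM in TKO-serum. It was 5.59-fold lower in TKO-2i, with a log2 fold change of -2.48 (SE 0.18, adjusted p = 6.9e-06). The size depended on the scale, with -0.90 by limma on log2(TPM + 1) and -2.20 on log2(TPM + 0.1). Fgfr4 (ENSMUSG00000005320, chr13:55152640-55168759, plus strand) is the liver receptor for Fgf15. It was at 2.48, 2.68 and 2.86 CPM in TKO-2i and 4.95, 3.66 and 4.52 CPM in TKO-serum, 1.63-fold lower with a log2 fold change of -0.71 (SE 0.14, adjusted p = 0.0021). This was the smallest difference among the members that were called, and the groups did not overlap.

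Levels were compared between genes in TPM. In TKO-2i the order of the members from high to low was Fgf4, Fgfr1, Fgf10, Fgf17, Fgf15, Fgfr4, Fgf2, Fgf8 and Fgfr3, and the libraries of neighbours in this order overlapped only for Fgf2 with Fgf8 and Fgf8 with Fgfr3. In TKO-serum the order was Fgf4, Fgfr1, Fgf17, Fgf15, Fgf8, Fgf10, Fgfr4, Fgfr3 and Fgf2, and only Fgf10 and Fgfr4 overlapped as neighbours. Mean levels in TKO-serum ran from 99.7 ± 4.92 TPM (SD, n = 3) for Fgf4 to 0.436 ± 0.163 TPM for Fgf2. In TKO-2i they ran from 88.1 ± 7.65 TPM (SD, n = 3) for Fgf4 to 0.187 ± 0.0458 TPM for Fgfr3. Fgf10 thus ranked above Fgf17 and Fgf15 in TKO-2i and below both in TKO-serum.

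The remaining secreted ligands and receptors complete the family. Of 12 further secreted ligands, 5 passed the filter on low counts. Fgf3, a ligand of inner ear and tail development, was higher in TKO-2i, at 13.1, 12.5 and 12.0 CPM against 3.78, 3.59 and 3.15 CPM in TKO-serum (log2 fold change 1.84, SE 0.09, adjusted p = 7.6e-07). Fgf1, Fgf5 and Fgf18 were lower. Fgf1 had 4, 4 and 5 counts in TKO-2i against 208, 311 and 293 in TKO-serum (log2 fold change -5.85), and Fgf5, a marker of the primed epiblast, had 1, 2 and 2 counts against 31, 51 and 57 (-4.62). Both passed the filter through TKO-serum alone. Fgf18 had a log2 fold change of -1.98, and Fgf22 was not called, with a log2 fold change of -0.09 (SE 0.31). Fgf6, Fgf7, Fgf9, Fgf16, Fgf20, Fgf21 and Fgf23 did not pass the filter and had at most 12 counts in any library. Among the homologous factors that stay inside the cell, Fgf11 was higher (log2 fold change 1.34), Fgf13 was lower (-0.78), and Fgf12 and Fgf14 were not tested.

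Summed over the 18 secreted ligands, the level was 103.8, 118.2 and 102.4 TPM in TKO-2i and 158.1, 171.4 and 167.3 TPM in TKO-serum. Fgf4 made up 81.4%, 82.0% and 81.1% of this sum in TKO-2i and 59.4%, 59.9% and 61.1% in TKO-serum. The groups did not overlap in either quantity, although with 3 libraries against 3 an exact permutation test cannot go below 0.1 and none was run. Most of the rest in TKO-serum was Fgf17 and Fgf15, with mean shares of 15.6% and 13.5%. In TKO-2i their mean shares were 2.15% and 1.70%, and the second ligand was Fgf3 with 7.98%, followed by Fgf10 with 3.97%. Without Fgf4, the ligands summed to 19.3, 21.2 and 19.4 TPM in TKO-2i and to 64.1, 68.7 and 65.1 TPM in TKO-serum.

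**Figure D2:**
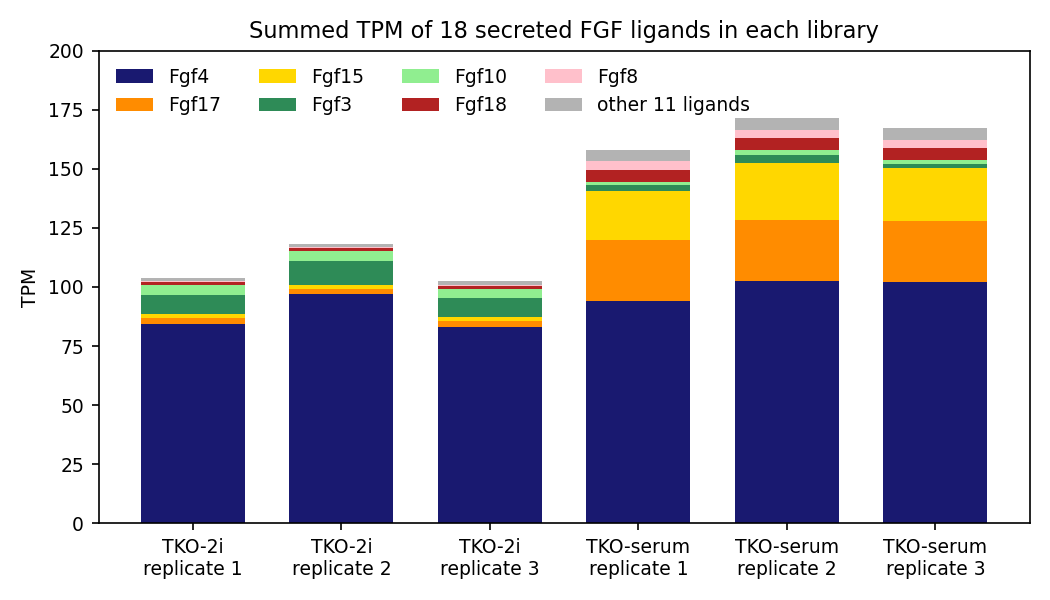
Summed TPM of the 18 secreted FGF ligands, with 1 bar for each library and colours for single ligands. The Fgf4 part is of similar height in all 6 bars, the Fgf17 and Fgf15 parts are large in the 3 TKO-serum bars, and the Fgf3 part is larger in the 3 TKO-2i bars.

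Of the 4 receptors, Fgfr2, which serves primitive endoderm together with Fgfr1, differed most. It had 22, 22 and 15 estimated counts in TKO-2i and 450, 632 and 504 in TKO-serum, 25.5-fold lower per library size with a log2 fold change of -4.67 (SE 0.13, adjusted p = 5.7e-08). The 4 receptors summed to 42.3 ± 4.97 TPM (SD, n = 3) in TKO-2i and 50.8 ± 1.10 TPM in TKO-serum. Fgfr1 was 97.0%, 96.9% and 96.2% of the receptor sum in TKO-2i and 82.4%, 85.0% and 83.1% in TKO-serum. Fgfr2 held a mean of 10.5% of it in TKO-serum and 0.518% in TKO-2i.

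Of 9 other receptors, co-receptors and binding proteins, Fgfr2 included, 2 were called higher, 4 lower and 3 were not called, so that 66.7% were called beside 62.5% of all genes tested. Klb, the co-receptor for Fgf15 in liver, was lower in TKO-2i (log2 fold change -1.31), as were the secreted carriers Fgfbp3 (-1.11) and Fgfbp1 (-0.50). The Fgfbp1 call was lost without TKO-serum replicate 1, with an adjusted p of 0.054 in a range from 0.0041 over the alternatives. The membrane proteins Flrt2 and Flrt1 were called higher (log2 fold changes 1.96 and 0.42). The Flrt1 call, at an adjusted p of 0.044, was lost under 14 of 16 alternatives, with adjusted p from 0.042 to 0.30. Fgfrl1, a receptor without a kinase domain and the most abundant gene of this list, was not called (0.16, adjusted p = 0.054), although its CPM did not overlap between groups and it passed under 3 of the 16 alternatives, with adjusted p from 0.029 to 0.60. Flrt3 had a log2 fold change of 0.01 and Kl of -0.35, and neither was called. Kl, with 6 to 18 counts, passed the filter through TKO-serum alone. Its log2 fold change ran from -0.52 to -0.10 with single libraries left out.

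Fgf3, which is not among the 9 members, lies next to Fgf4 and Fgf15 in the genome. The 3 genes lie on the plus strand of chromosome 7 within 62.9 kb. Their log2 fold changes, in order along the chromosome, were 1.84, -0.09 and -3.50. The gap between the annotated Fgf3 and Fgf4 genes is 2930 bases and that between Fgf4 and Fgf15 31287 bases. Beyond Fgf15, the nearest tested protein-coding gene, LTO1, was higher in TKO-2i (log2 fold change 0.71, adjusted p = 2e-05).

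**Figure D3:**
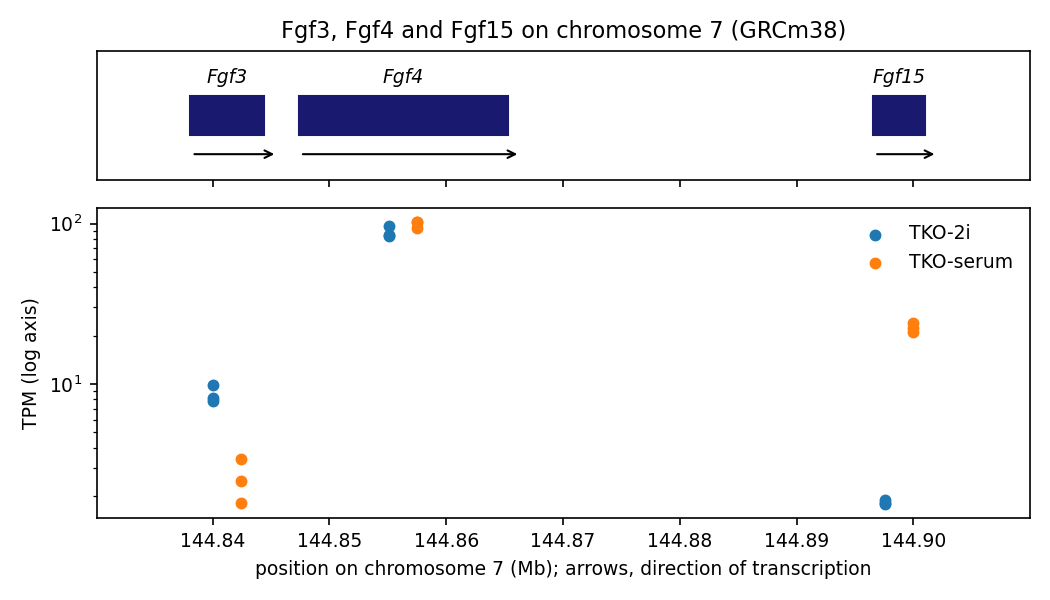
Map of the annotated spans of Fgf3, Fgf4 and Fgf15 on chromosome 7 of GRCm38, with no other gene drawn. Below it is the TPM of each library on a log axis (TKO-2i blue, TKO-serum orange). Fgf3 is higher in TKO-2i, the Fgf4 libraries of both media overlap in TPM, and Fgf15 is higher in TKO-serum.

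Over all 9 members, 16 different genes outside the members were the nearest tested protein-coding gene on one side. Of these, 4 were called higher and 5 lower in TKO-2i, 9 of 16 in all, beside 62.5% of all genes tested. Next to Fgf17, Dmtn lies 154 bases away and had a log2 fold change of -0.21 (adjusted p = 0.012), and Npm2, on the other side, had -3.15 (adjusted p = 1.2e-05) at a mean of 1.30 CPM in TKO-serum, through which alone it passed the filter. Next to Fgf8 were Fbxw4 (0.49, adjusted p = 0.0017) and Npm3 (-0.06, adjusted p = 0.66). Around Fgf10 the nearest genes were far away, Mrps30 at 282538 bases (0.22, adjusted p = 0.0051) and Nnt at 543332 bases (-1.58, adjusted p = 0.00043). Fgfr1 lay between Tacc1 (0.06, adjusted p = 0.49) and Letm2 (-1.25, adjusted p = 0.0011), and Fgfr3 between Tacc3 (-0.06, adjusted p = 0.57) and Letm1 (0.06, adjusted p = 0.50). The neighbours of Fgfr4 were Zfp346 (-0.57, adjusted p = 3.5e-05) and Nsd1 (-0.15, adjusted p = 0.21), and those of Fgf2 were Bbs12 (-0.33, adjusted p = 0.07) and Spata5 (0.08, adjusted p = 0.23).

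The TPM of the members was divided over annotated transcripts. Fgf4-201, with 3030 bases and a start at position 144861386 of chromosome 7, carried at least 99.4% of Fgf4 in every library. The other transcript, Fgf4-202, starts upstream at position 144847367 and held at most 0.643%. Fgf10-201 was the one Fgf10 transcript with counts, and Fgf15-201 held at least 95.4% of Fgf15 in every library. Fgf17 was divided between 2 coding transcripts, with Fgf17-201 at 82.9%, 61.1% and 64.7% in TKO-2i and at 74.9%, 77.1% and 73.7% in TKO-serum. The TKO-2i shares rest on 105 to 145 counts of the gene and enclosed the TKO-serum shares. Fgf8 was divided over 6 transcripts, and in TKO-serum Fgf8-206 had the largest share in each library, at 53.0%, 43.2% and 53.2%. In TKO-2i, with 6 to 17 counts of the gene, its shares were 0, 0 and 55.2%, and the largest shares in replicates 1 and 2 were those of Fgf8-203 (57.6%) and Fgf8-202 (85.4%). The leading transcript also differed between libraries for the rare Fgf2, with Fgf2-207 at 60.0% in TKO-2i replicate 3 and Fgf2-208 ahead in the other 5 libraries. The transcript with the largest share of Fgfr3 in replicate 2 of each medium was not the one that led in the other 4 libraries.

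Of the 19 annotated Fgfr1 transcripts, Fgfr1-202 carried 53.4%, 52.0% and 56.6% of the TPM in TKO-2i and 50.0%, 50.0% and 54.8% in TKO-serum. Fgfr1, Fgfr2 and Fgfr3 have a pair of alternative exons, called IIIb and IIIc, that encode part of the third immunoglobulin-like domain and set which ligands bind. In Fgfr1 the first of the pair spans positions 25563374 to 25563524 of chromosome 8 (151 bases) and the second spans 25564340 to 25564484 (145 bases). Transcripts with the second exon alone held 70.4%, 69.0% and 75.9% of Fgfr1 TPM in TKO-2i and 64.9%, 66.2% and 70.1% in TKO-serum. Transcripts with the first alone had 0.342% in TKO-serum replicate 1 and 0 in the other 5 libraries. Fgfr1-208, which holds both exons and is annotated as a target of nonsense-mediated decay, had 9.97%, 6.61% and 6.52% in TKO-2i and 13.0%, 10.8% and 10.1% in TKO-serum. The highest TKO-2i share of this transcript, 9.97%, lay just below the lowest TKO-serum share, 10.1%. How often shares of the groups are separate among all transcripts was not counted, so the separation is not a result about this transcript. The remaining TPM lay on transcripts in which neither is annotated as an exon by itself. Fgfr1-206, a retained-intron transcript with an exon that overlaps both, held 5.61%, 6.65% and 5.90% in TKO-2i and 8.27%, 10.3% and 8.27% in TKO-serum. Shares depend on how reads common to several transcripts were divided.

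The genes most like Fgf4 over the 6 libraries, by the mean absolute difference of log2 CPM centred on each gene's mean, were Usp22, Zfp146 and Srpk1, with differences of 0.011, 0.013 and 0.014. For Fgfr1 they included Ints10 and Map3k4, with differences of 0.007 and 0.013. Each was taken from 12262 tested protein-coding genes with a mean of at least 1 TPM. Their log2 fold changes were -0.09, -0.10 and -0.11 for those like Fgf4 and 0.08 and 0.06 for those like Fgfr1. The likeness is therefore that of genes that hardly differed between the media, and shared regulation was not tested.

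The promoter sequences of RefSeq (GRCm38.p6), which run from 250 bases before to 50 bases after an annotated start, held 5 of the 9 members. They are shown for Fgf4, which was abundant in both media, and for Fgf10, the member that was higher in TKO-2i, with each CG dinucleotide, the site that DNA methyltransferases act on, in capitals. The windows are chr7:144861136-144861435 for Fgf4 and chr13:118714449-118714748 for Fgf10, both on the plus strand. They are set on the starts of Fgf4-201 and Fgf10-201, which lie downstream of the gene starts given above.
Fgf4 promoter: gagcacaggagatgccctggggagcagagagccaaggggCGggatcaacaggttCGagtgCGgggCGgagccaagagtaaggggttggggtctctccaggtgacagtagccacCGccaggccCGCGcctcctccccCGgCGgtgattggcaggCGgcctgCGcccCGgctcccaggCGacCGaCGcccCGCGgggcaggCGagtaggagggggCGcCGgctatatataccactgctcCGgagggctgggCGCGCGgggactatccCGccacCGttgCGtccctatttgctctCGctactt
Fgf10 promoter: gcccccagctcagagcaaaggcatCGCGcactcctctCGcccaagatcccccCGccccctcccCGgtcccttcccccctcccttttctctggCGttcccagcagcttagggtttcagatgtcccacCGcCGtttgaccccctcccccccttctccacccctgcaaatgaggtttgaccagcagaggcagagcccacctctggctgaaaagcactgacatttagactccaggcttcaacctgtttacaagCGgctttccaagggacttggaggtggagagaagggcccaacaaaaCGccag
The Fgf4 window holds 28 CG dinucleotides and 14.2% of all 32851 promoter windows hold at least as many. The Fgf10 window holds 10, a number reached by 43.5% of windows. The median over all windows is 7. Of the members whose windows are not printed, Fgf2 has 24, Fgfr3 has 26 and 30 at its separate starts, and Fgfr4 has 20. Fgfr3 and Fgfr4 were lower in TKO-2i. No window was available for Fgf8, Fgf15, Fgf17 and Fgfr1, and a relation of CG number to the differences was not tested. The letters TATATA, which read the same on both strands, begin 30 bases before the Fgf4-201 start and occur in 5.7% of all windows. They are in no other member's window. Such matches describe the letters of the windows and nothing was measured at them.

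Outside the promoter, the 3′ UTR of Fgf4 is known for an enhancer that Sox2 and Oct4 bind side by side. The letters CTTTGTT and ATGCTAAT, 3 bases apart, occur once in Fgf4-201, in exon 3 at chr7:144864388-144864417 of GRCm38, plus strand. They are printed here in capitals because Fgf4 was the main ligand in both media and the genes of both factors were abundant in them.
Fgf4 site: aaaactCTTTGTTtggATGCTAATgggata
The letters searched for were those of the Fgf4 site itself, so Fgf4-201 was bound to hold them. Among 8681 protein-coding transcripts of 2500 to 3500 bases, searched on both strands, no other held these exact letters at this spacing. The shorter ATGCTAAT was in 6.1%. Variants of the letters and other spacings were not searched, so this does not show how common such arrangements are. The match is a description and binding was not measured.

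The genes of the next 3 lists act with the ligands and receptors, and no comparison between lists was tested. Among all genes tested, 62.5% were called and the median log2 fold change was 0.01. Heparan sulfate, made on core proteins such as glypicans and syndecans, holds FGFs to their receptors. Of 33 such genes, 31 were tested, with 11 higher, 12 lower and 8 not called and a median log2 fold change of 0.02. Of the 12, 2 passed the filter through TKO-serum alone. Sulf2, an enzyme that removes 6-O-sulfate groups and the most abundant of them, was slightly higher (log2 fold change 0.18, adjusted p = 0.014). The largest rises were those of the glypican Gpc6 (1.17) and of B3gat3 (1.13), which helps build the linker to the core protein. The largest falls were those of the sulfotransferase Hs6st2 (-3.93) and of Sulf1 (-1.67).

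All 26 adaptors and kinases below the receptor were tested, and 9 were higher, 5 lower and 12 not called. This balance depended on the processing. Upper quartile factors gave 6 higher and 7 lower. Limma gave 6 and 6 on log2(TPM + 1) and 6 and 7 on log2(TPM + 0.1), whereas the replicate block gave 14 and 7. Their log2 fold changes had a median of 0.11. The scaffold Ksr1 rose most (1.38), and the docking proteins Gab2 (-1.09) and Gab1 (-0.71) fell most.

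Among the feedback regulators and targets of the pathway, 20 of 21 genes were matched and all were tested. In TKO-2i, 16 were lower, 2 were higher and 2 were not called, and the median log2 fold change was -1.04. Of the 16, 1 passed the filter through TKO-serum alone. Etv5, the most abundant, was at 401.5 to 409.6 CPM in TKO-2i and 552.2 to 557.3 CPM in TKO-serum (-0.45). The largest falls were those of the ERK phosphatases Dusp4 (-3.23, adjusted p = 6.3e-08) and Dusp6 (-2.92, adjusted p = 1.6e-08). Dusp6 had 4.63 to 4.86 CPM in TKO-2i and 35.3 to 36.8 CPM in TKO-serum. The genes that rose were Ccnd1 (0.52) and Etv4 (0.49).

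Markers of other cell types were examined in 6 lists. The counts of called markers stand beside 62.5% called among all genes tested, 31.9% higher and 30.6% lower, and no list was tested against them. Of 9 primitive endoderm markers, 8 were lower in TKO-2i and 1 was not called. Of the 8, 3 passed the filter through TKO-serum alone. Their TPM summed to 5.04, 6.19 and 5.39 in TKO-2i and to 19.8, 23.0 and 25.4 in TKO-serum. Dab2 (log2 fold change -4.35) was the most abundant in TKO-serum, at a mean of 6.72 TPM, and Gata4 in TKO-2i, at 2.41 TPM, and the largest fall was that of Cubn (-6.93), which is 1 of those 3. All 5 tested of 6 primed epiblast markers were lower, among them Fgf5, which passed the filter through TKO-serum alone, and the list summed to 9.02, 9.72 and 9.86 TPM and to 49.7, 53.5 and 50.1 TPM in the same order. Otx2 was the most abundant of them (-3.01), and Cer1 had 0 to 5 counts.

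Primitive streak markers went the other way in sum, at 23.0, 23.8 and 28.0 TPM in TKO-2i and 4.58, 5.21 and 5.24 TPM in TKO-serum. Of 8, 3 were higher, 1 was lower and 3 were not called. T rose most (5.58), then Eomes (2.81), whereas Tbx6 fell (-0.76). T was the most abundant in TKO-2i, at a mean of 11.8 TPM, and Evx1 in TKO-serum, at 1.07 TPM. Mesp1 was not tested. Of 7 trophoblast markers, 2 were higher, 3 lower and 1 not called, with sums of 10.7, 10.9 and 11.6 TPM and of 5.12, 5.87 and 5.00 TPM. Cdx2 (4.28) and Tfap2a (2.02), the most abundant, rose, Gata3 (-3.33) and Hand1 (-2.11) fell, and Prl3d1 had a single count in 1 library. Cdx2 passed the filter through TKO-2i alone and Gata3 through TKO-serum alone.

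The 5 neural markers summed to 3.48, 3.91 and 2.98 TPM in TKO-2i and 15.5, 17.1 and 16.0 TPM in TKO-serum. The 3 that were tested were lower, of which 1 passed the filter through TKO-serum alone, with Pax6 the most abundant (-2.46), while Neurog2 was at 0 in all TKO-2i libraries. The 8 fibroblast markers summed to 6.10, 6.79 and 5.98 TPM and to 6.48, 7.06 and 6.58 TPM in the same order. Thy1 was the most abundant (-0.42), Pdgfrb rose (1.62), Col1a2 fell (-1.55), and Col3a1, Postn, Dcn and Lum had at most 14 counts. The part that cells of these types have in the levels of the FGF genes was not tested.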

How the data were processed

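Messenger RNA of 3 TKO-2i and 3 TKO-serum libraries was analysed, and the labels give medium, genotype and replicate number. Per transcript and library, the authors give an unnormalised estimated count, in columns of the kind salmon writes. The deposited TPM values correct for effective length and have the same sum in every library. The submitters' processing notes name mm10, and the study describes TopHat alignment with RPKM per gene, whereas the deposited values are of another kind, for which the quantifier is not given in the sources used here. Transcripts were matched to GENCODE M21 (GRCm38), with 136100 of 136288 matched and at most 0.0643% of a library's counts left out. Sums per gene were rounded to whole numbers, passed through filterByExpr, normalised by TMM and tested with edgeR 4.0.16 (glmQLFit, glmQLFTest, R 4.3.3) with medium as the only factor, and p-values were adjusted by Benjamini-Hochberg over 18177 genes. Standard errors are the absolute log2 fold change divided by the square root of F. The script was tested on simulated counts of 18177 genes. There edgeR called 70 of 100 genes changed by 1 on the log2 scale and 96 of 100 changed by 2, with 9 false calls. A gene that was not called can therefore still differ. Without the TMM factors, which the CPM values given above include, a gene with 3 counts has 0.0578 to 0.0784 CPM. Counting precision ignores PCR copies.

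The members and lists were chosen with earlier results of these data known. Named genes are all members; in each list the most abundant gene by TPM (where the media differ, that of each) and up to 2 largest rises and falls among those called; every tested gene of the small family lists and all mESC and knocked-out genes; the nearest tested protein-coding genes; and the 3 genes most like Fgf4 and Fgfr1. Some genes that this rule takes are not reported here. Alternatives were DESeq2 1.42.0, its size factors or upper quartile factors in edgeR, dropping the low-count filter, a minimum of 10 counts in each library, length-scaled TPM counts, limma 3.58.1 on log2(TPM + 1) and log2(TPM + 0.1), a replicate block, protein-coding genes only, and each library left out in turn. Which sequencing pool held each library is not given in the sources used here.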

Additional observations from a re-analysis of the deposited data

How the results depend on the processing

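Over 16 alternatives the 9 members gave 143 values. Of these, 136 kept the direction and side of the threshold, 3 (all Fgf4) became called as lower, and 4 changed sign with no call in either fit: Fgf2 with length-scaled TPM counts (0.11), Fgfr1 with upper quartile factors (-0.04) and Fgfr1 on both limma scales (-0.06 and -0.06). Among 16 other family genes, 220 of 253 values kept both, 15 lost the call (Flrt1 and Fgfbp1), 3 gained it (Fgfrl1) and 15 changed sign, all of Fgf22 and Flrt3, which were called in no fit. Fgf22 changed with length-scaled TPM counts (0.22) and on the limma scales with 1 and 0.1 added (0.03 and 0.08), and ran from -0.33 to 0.16 with single libraries left out. Flrt3 was at -0.00 under DESeq2 and with its size factors (-0.00), -0.11 with upper quartile factors, -0.03 with the 10-count filter, -0.05 and -0.07 on the limma scales and -0.01 with protein-coding genes only, and ran from -0.05 to 0.07 with single libraries left out. The cause of these changes was not tested. Sizes depended on the scale even where the call was kept. On log2(TPM + 1), where the added 1 draws low levels together, the log2 fold change was -1.62 for Fgf8 (-2.86 in the main fit), -0.90 for Fgfr3 (-2.48), -2.38 for Fgfr2 (-4.67), -1.80 for Fgf1 (-5.85), -0.80 for Fgf5 (-4.62), -0.43 for Klb (-1.31), -0.71 for Fgfbp3 (-1.11), 0.73 for Fgf11 (1.34) and 1.02 for Flrt2 (1.96). On log2(TPM + 0.1) that of Fgf5 was -2.82. With no filter on low counts, 35.3% of genes were called in place of 62.5%, since more low genes were tested, and 2 intracellular factors were lower in place of 1. With at least 10 counts in every sample, Fgf8, Fgf1, Fgf5 and Kl were not tested and 1 further secreted ligand was lower in place of 3. Limma on both TPM scales called 7 heparan sulfate genes higher in place of 11, and the cause was not tested. Of the other receptors, co-receptors and binding proteins, 1 was called higher in place of 2 under DESeq2, its size factors, upper quartile factors, no filter, the 10-count filter and both limma scales, as Flrt1 was not called, and 1 to 2 with single libraries left out. Fgfrl1 was called in place of Flrt1 without TKO-2i replicate 2, with length-scaled TPM counts and under the replicate block. Upper quartile factors gave 40.3% of called genes as higher and limma 41.9% on log2(TPM + 1) and 42.0% on log2(TPM + 0.1), against 51.1% in the main fit.

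The labels do not say whether the replicate numbers pair the samples. Same-numbered libraries correlated in their deviations across genes at 0.380, 0.498 and 0.064. Of 6 libraries, 5 correlated best with their own number, a hint from the data and not the design. The replicate block gave 12539 calls in place of 11361 and 14 adaptors and kinases higher in place of 9, and left the members at 1 higher and 5 lower. Low counts limit Fgf2, Fgf8 and Fgfr3 most.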
